A study of Mus musculus with 6 samples.

Results

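Cytosolic ribosomal protein genes encode the protein subunits of the ribosome that translates nuclear messages. Of 18193 genes with a probe set annotated to them alone, 48 had a symbol of this family (Rpl or Rps with a number, Rplp0, Rplp2 or Rpsa), after Rps6k kinase genes, Rps19bp1, Rps27l and pseudogenes were left out. They comprised 22 genes of the large subunit, 21 of the small subunit and 5 paralogues, which are related genes that encode alternative or variant forms. Each gene was read by its brightest probe set, and 45 of 48 passed the filter on low signal. A further 110 probe sets listed such a symbol together with other genes and belong to no gene here, and 34 further subunit genes of the gene lists had no probe set to themselves and were not analysed here.

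The arrays measured RNA of mouse bone marrow cells after sorting, from cells that all carried the leukaemia fusion oncogene MLL-AF9 and the same EGFP control vector and that grew with interleukin 3, interleukin 6 and stem cell factor. In the MLL-AF9/Mn1wt group (n = 3) Mn1, which encodes a transcriptional cofactor, was intact, and in the MLL-AF9/Mn1null group (n = 3) it had been deleted with CRISPR-Cas9. The labels leave out strain, age, sorting gate, the number of clones and how MLL-AF9 was introduced. Nothing in the labels ties the replicates to separate cultures or mice, so p-values describe the spread among these 6 arrays, which may be technical only. In whole-population RNA, a change in the share of a cell type and a change in RNA per cell cannot be told apart.

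Each ribosome needs 1 copy of nearly every subunit protein, except the stalk proteins, and cells make these proteins in balanced amounts. Their messages are abundant and stable in growing cells, and most begin with a 5′ terminal oligopyrimidine (TOP) tract, a cytosine followed by a run of pyrimidines, through which mTOR signalling and the RNA-binding protein LARP1 control their translation. In blood formation, loss of 1 copy of single genes such as those of RPS19, RPL5 or RPL11 causes Diamond-Blackfan anaemia, and free RPL5 and RPL11 can bind MDM2 and stabilise p53.

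RefSeq starts (build GRCm38.p6) were matched for 42 of the 48 genes. A TOP tract of a C and at least 4 further C or T, beginning exactly at an annotated start, was found for 8 of the 42 (19.0%) against 3.01% of 27025 genes. With starts up to 5 bases away allowed, it was found for 13 (31.0%) against 15.6%. Away from the exact start, a tract counted only where the base before its first C was neither C nor T. The windows of these 8 genes are shown to make the shared feature visible, from 20 bases before to 10 bases after the start begins, with the tract in capitals as far as the window reaches. Each window is placed on an annotated transcript start. That of Rpl38 lies inside the span of the gene as RefSeq gives it, and the other 7 lie at the gene's end.
Rpl14, chr9:120571497-120571526, plus strand: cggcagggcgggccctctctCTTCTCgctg
Rpl35, chr2:39005122-39005151, minus strand: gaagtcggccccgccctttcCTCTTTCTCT
Rpl38, chr11:114668560-114668589, plus strand: ccggaagcggaagcctcgttCTTTCCCCgt
Rplp2, chr7:141447631-141447660, plus strand: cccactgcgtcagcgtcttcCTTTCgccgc
Rps10, chr17:27635235-27635264, minus strand: acgctgcgccgcgcacgcccCTTCCTTTCC
Rps18, chr17:33955656-33955685, minus strand: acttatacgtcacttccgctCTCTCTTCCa
Rps27, chr3:90213639-90213668, minus strand: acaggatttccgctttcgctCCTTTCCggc
Rps6, chr4:86857358-86857387, minus strand: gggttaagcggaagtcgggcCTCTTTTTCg
The paralogues Rpl22l1 and Rpl7l1 and the falling genes Rpl27a and Rps25, described further on, had no such tract at the annotated start, and their windows are set out for comparison. Rpl27a is 1 of the 13 genes with a tract counted within 5 bases of the start. The run shortly after the start of Rpl22l1 follows a T and was not counted.
Rpl22l1, chr3:28805488-28805517, plus strand: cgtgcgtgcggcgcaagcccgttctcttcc
Rpl7l1, chr17:46782647-46782676, minus strand: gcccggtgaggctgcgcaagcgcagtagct
Rpl27a, chr7:109519175-109519204, plus strand: cgcgagacttcgtgagctcctcccttttcc
Rps25, chr9:44407694-44407723, plus strand: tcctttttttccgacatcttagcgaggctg
Annotated starts can miss the start used in these cells by several bases. Over the whole window of 300 bases, the ETS-type motif CCGGAAG occurred on either strand in 20 of 42 genes (47.6%) against 9.93% of all genes, GGGCGG in 24 (57.1%) against 38.2%, AAGATGGC in 4 (9.52%) against 3.19% and TATAAA in 6 (14.3%) against 15.7%. Genes with a tract had a median difference of 0.065 (8 tested, 2 higher, 0 lower) and those without one 0.074 (31 tested, 8 higher, 2 lower), and the difference between them was not tested.

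The deleted gene, Mn1, read close to the filter level of 4.07 with overlapping groups (4.35 ± 0.20 and 4.13 ± 0.071, adjusted p = 0.121; without Mn1wt replicate 2 it was 0.00727), and where its probe set lies relative to the deletion was not examined. Array medians were 5.17 to 5.23 and overlapped between groups, while several other features of the arrays moved with the groups. Labelling control transcripts of bacteria, as read by their 8 probe sets at the 5′ end, averaged 7.32 ± 0.10 in Mn1wt and 6.47 ± 0.059 in Mn1null (SD, n = 3 each), against differences of -0.49 for middle, -0.30 for 3′ and -0.094 for hybridisation control probe sets. Of 5 mouse control transcripts, the 3′ minus 5′ signal was higher in Mn1null without overlap for 18S ribosomal RNA (by 0.27) and pyruvate carboxylase (by 0.49), and it overlapped for Gapdh, beta-actin and the transferrin receptor (-0.011 to 0.089). Their part in the results was not tested. All 12 of 12 myeloid markers were above the filter level, and their mean signal was 11.32 to 11.37 in Mn1wt and 11.75 to 11.76 in Mn1null, with 7 higher and 3 lower. The mean of B cell markers was 4.74 to 4.92 and 4.75 to 4.82, of T and NK cell markers 5.62 to 5.67 and 5.64 to 5.75, of stroma and endothelium 5.21 to 5.27 and 5.57 to 5.60, and of erythroid markers 5.50 to 5.59 and 5.65 to 5.80. Of these 4 lists, 2 of 7, 1 of 7, 1 of 9 and 1 of 6 genes lay under the filter level. By limma, B cell markers had 0 higher and 1 lower of 5 tested (-0.91 to 0.22). T and NK cell markers had 0 higher and 0 lower of 6. Stroma and endothelium had 2 higher and 0 lower of 8 (-0.18 to 1.78), and erythroid markers 2 higher and 1 lower of 5 (-0.79 to 1.07). The part of these markers in the ribosomal protein results was not tested.

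In Mn1null cells most ribosomal protein genes read slightly above their Mn1wt signals on their brightest probe sets, and few passed the test. Of 45 tested, 11 were higher, 2 were lower and 32 did not pass limma's test, which is 28.9% called (14 higher and 2 lower by unadjusted p). Over all 14680 genes tested the test called 48.8%, with 23.2% higher and 25.6% lower. The median difference of the 45 genes was 0.069 on the log2 scale, against -0.0053 over all genes, and 36 of the 45 differences were above 0. Their 3 Mn1null values lay all above the 3 Mn1wt values for 29 genes and all below for 6, so 77.8% did not overlap, against 57.7% of all genes. The size of this shift depended on the scaling: its median was 0.037 after another quantile normalization and 0.023 after each array was centred on its median. Its sign depended on the choice of probe set. Over the 23 genes tested on a probe set of the plain design, the median was -0.04 and 11 differences were above 0. At the 99.8th percentile of signal, the deposited values lay at 14.28 to 14.29 in Mn1wt and 14.31 to 14.33 in Mn1null, and the part of this offset in the shift was not tested.

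Array by array, the median deviation of the 45 genes from their own means was -0.041, -0.023 and -0.036 in the Mn1wt arrays and 0.043, 0.029 and 0.036 in the Mn1null arrays. The 6 arrays split by group without overlap, and with any 1 array left out the median difference was 0.065 to 0.078. Over all genes tested, the same medians lay between -0.018 and 0.012.

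**Figure D1:**
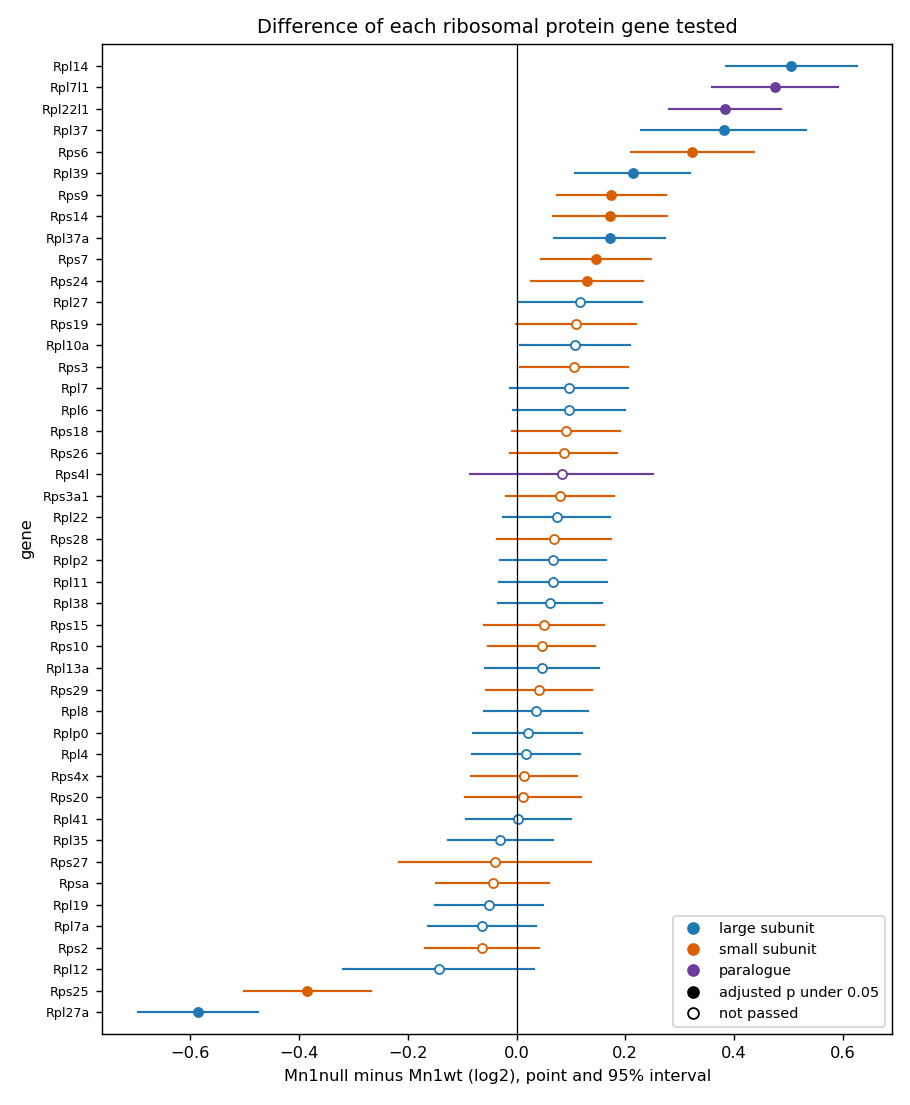
Difference (log2, Mn1null minus Mn1wt) with its 95% interval for each of the 45 ribosomal protein genes tested, coloured by subunit, with filled points where limma's adjusted p was under 0.05. Most genes sit between 0 and 0.12, while Rpl14 and Rpl27a mark the ends at 0.51 and -0.59.

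Most of these genes were read near the top of the array's range. Signals of 35 of the 45 averaged at least 13, and of 34 at least 14, while the highest signal of any probe set was 14.84 to 14.89 on the Mn1wt arrays and 15.00 to 15.03 on the Mn1null arrays. Among the 35, 6 were higher, 0 were lower and 29 did not pass (limma), with differences from -0.064 to 0.38. At an unadjusted p under 0.05, 9 were higher and 0 lower. The intervals of the 29 reached from -0.17 to 0.23, so a rise of more than 1.17-fold or a fall of more than 1.12-fold lay outside every one of them on the deposited scale. The part of the array's upper limit in these small differences was not tested. Of the 10 tested ribosomal protein genes with a mean under 13, 5 were higher and 2 lower (70% called, against 17.1% of the 35 and 48.8% of all genes tested). Those called, Rpl14, Rpl37, Rpl39, Rps6, Rpl7l1, Rpl27a and Rps25, had no probe set annotated to them alone with a mean of at least 13 for comparison. Probe sets annotated to several genes were not examined gene by gene. Of 127 other genes with a mean of at least 13, 17 were higher and 61 lower (61.4% called, median -0.13), and of 18 other genes with a mean of at least 14, 2 were higher and 6 lower (44.4%).

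These bright signals also varied very little between replicates. Their median pooled SD was 0.021, against 0.083 over all genes, and their median SE of a difference in limma was 0.042. With a prior that follows signal (limma's trend and robust settings) their median SE was 0.023, and 28 of the 45 genes passed, 24 higher and 4 lower (20 and 2 among the bright ones), against 51.7% of all genes. Of the 13 genes called by the usual prior, 12 were called by both.

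**Figure D2:**
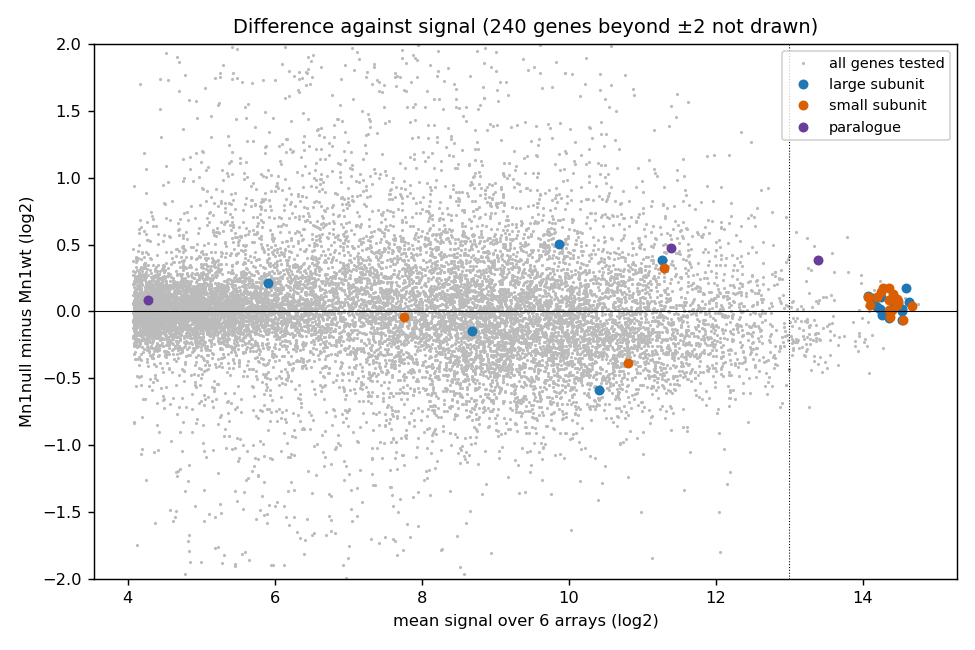
Difference (log2, Mn1null minus Mn1wt) against mean signal over the 6 arrays for all 14680 genes tested (grey, with 240 beyond the axis limits of 2 not drawn) and the ribosomal protein genes in colour. The dotted line marks a signal of 13, to the right of which 35 of the 45 ribosomal protein genes form a tight group near 0.

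Of 22 large subunit genes tested, 4 were higher and 1 lower (22.7% called, against 48.8% of all genes tested). Their median was 0.065, with a range from -0.59 to 0.51. Rpl14, whose protein has no bacterial counterpart, read 9.56, 9.63 and 9.63 in Mn1wt and 10.15, 10.15 and 10.05 in Mn1null (log2). All 3 Mn1null arrays were above all Mn1wt arrays. Group means were 9.61 ± 0.042 in Mn1wt and 10.11 ± 0.056 in Mn1null (SD, n = 3 each), 1.42-fold higher in Mn1null (0.51 ± 0.051, SE, limma adjusted p = 0.000186). Rpl37, a zinc-binding protein of the large subunit, read 11.07, 11.11 and 11.07 in Mn1wt and 11.42, 11.59 and 11.38 in Mn1null, with Mn1null replicate 2 above the other Mn1null arrays and no overlap between groups. It differed by 0.38 ± 0.064 (adjusted p = 0.00222). Rpl37a, another zinc-binding subunit, had a bright signal that went from 14.50 ± 0.017 to 14.67 ± 0.027, a difference of 0.17 (adjusted p = 0.0136) that missed the threshold after median centring (adjusted p = 0.0715). In a limma fit over all probe sets, its probe set at 13.98 passed (0.26, adjusted p = 0.00739) and that at 9.44 did not (0.057, adjusted p = 0.49). Rpl39, whose small protein lines the peptide exit tunnel, differed by 0.21 on a dim probe set with a mean of 5.91 (adjusted p = 0.00621, and 0.0814 with the trend and robust settings). The probe sets of Rpl14, Rpl37 and Rpl39 all had means under 13, and which transcript forms they read was not tested.

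Rpl27a was the large subunit gene called lower. Its protein sits in the core of the subunit and has a bacterial counterpart. It read 10.72, 10.66 and 10.75 in Mn1wt and 10.13, 10.09 and 10.14 in Mn1null, so every Mn1null array lay below every Mn1wt array. The mean went from 10.71 ± 0.046 to 10.12 ± 0.026 (SD, n = 3 each), and Mn1null was lower (difference -0.59 ± 0.047, SE, limma adjusted p = 6.41e-05). These values are of a probe set with a mean of 10.41, and which transcript forms it reads was not tested. The other probe set of Rpl27a was under the filter level, at a mean of 3.70.

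Rplp0, Rplp2 and Rpl11, the genes of the stalk and of the MDM2-binding pair that could be tested, did not pass; Rplp1 and Rpl5 were not tested. Rplp0, the base of the stalk that recruits elongation factors, read 14.53, 14.53 and 14.51 in Mn1wt and 14.54, 14.57 and 14.52 in Mn1null, with overlapping groups and a difference of 0.021 (95% interval -0.08 to 0.12) whose sign turned to -0.0048 after quantile normalization and -0.025 after median centring. Rplp2, a tip protein of the stalk, differed by 0.068 (-0.03 to 0.17) without overlap. Rpl11 read 14.09, 14.13 and 14.08 in Mn1wt and 14.18, 14.15 and 14.17 in Mn1null, again without overlap, and differed by 0.068 (-0.032 to 0.17, adjusted p = 0.234). With the trend and robust settings Rplp2 (adjusted p = 0.0119) and Rpl11 (adjusted p = 0.0212) passed. Of 19 listed Diamond-Blackfan genes, 11 were tested, and 2 were higher and 0 lower by limma (18.2% called, against 48.8% of all genes tested, median 0.069). By unadjusted p, 3 were higher and 0 lower. With the trend and robust settings 7 were higher and 0 lower, where 51.7% of all genes were called. The 2 called, Rps7 and Rps24, are described with the small subunit.

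Of 20 small subunit genes tested, 5 were higher and 1 was lower (30% called, against 48.8% of all genes tested), with a median of 0.074. Rps6, the S6 kinase substrate, read 11.08, 11.14 and 11.18 in Mn1wt and 11.47, 11.45 and 11.45 in Mn1null. Its groups stood clearly apart, with a mean that went from 11.13 ± 0.055 to 11.46 ± 0.015 (SD, n = 3 each), a 1.25-fold rise (difference 0.32 ± 0.047, SE, adjusted p = 0.00116). This probe set had a mean of 11.29, and which transcript forms it reads was not tested. Rps9, needed for decoding accuracy, went from 14.18 ± 0.013 to 14.36 ± 0.027 on its brightest probe set (0.17, adjusted p = 0.0122; the mean of its 3 probe sets gave -0.13, adjusted p = 0.0482), and Rps14, a platform protein whose human gene is lost in the 5q- syndrome, from 14.26 ± 0.001 to 14.44 ± 0.042 (0.17, adjusted p = 0.0156). Rps14 missed the threshold after median centring (adjusted p = 0.0651). In a limma fit over all probe sets, the other bright probe sets of Rps14 (0.12, adjusted p = 0.0935) and Rps7 (0.12, adjusted p = 0.112) did not pass. Rps7 differed by 0.15 (adjusted p = 0.0256) and Rps24, which acts in the processing of ribosomal RNA, by 0.13 (adjusted p = 0.0441). Rps7 missed the threshold after quantile normalization or median centring (adjusted p = 0.0595 and 0.173) and when any 1 array but Mn1null replicate 3 was left out (0.0547 to 0.0787). Rps24 did so as well (0.0737 and 0.242 with the other scalings, 0.0869 to 0.121 with arrays left out), and also with no filter (0.0703).

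Rps25, a protein of the subunit's head that serves in initiation at internal entry sites, was called lower. It read 10.95, 11.02 and 11.00 in Mn1wt and 10.55, 10.63 and 10.64 in Mn1null, with no overlap. Its mean went from 10.99 ± 0.037 to 10.61 ± 0.051 (SD, n = 3 each), 1.31-fold lower in Mn1null (difference -0.38 ± 0.049, SE, limma adjusted p = 0.000586). This probe set had a mean of 10.80, and which transcript forms it reads was not tested. Rps19, the most often mutated Diamond-Blackfan gene, read 14.13, 14.13 and 14.16 in Mn1wt and 14.21, 14.24 and 14.31 in Mn1null. Its groups did not overlap, but at 0.11 (95% interval -0.0005 to 0.22) it missed the threshold (adjusted p = 0.0928; 0.00143 with the trend and robust settings). Rpsa, whose small subunit protein is also known as the laminin receptor, overlapped between groups and differed by -0.044 (-0.15 to 0.06). Rps16 was read only by a probe set at a mean of 3.40, under the filter, and was not tested.

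**Figure D3:**
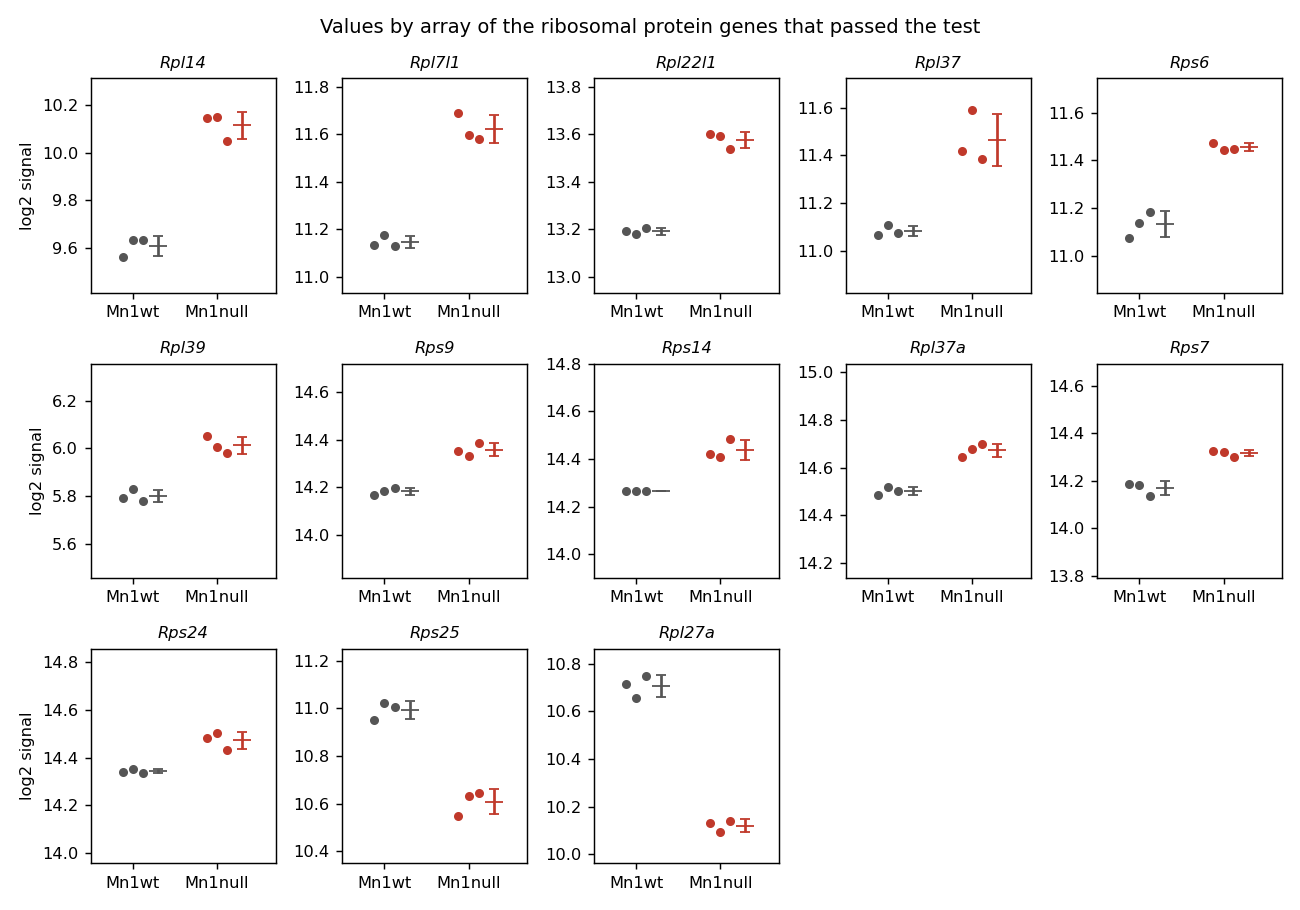
Log2 signal on each array (points) with mean and SD (bars at the right of each group, n = 3) for the 13 ribosomal protein genes that passed limma's test, ordered by difference, with panels of equal height on their own scales. In every panel the 3 Mn1null values lie on 1 side of the 3 Mn1wt values, below them for Rps25 and Rpl27a and above them for the other 11.

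Of 3 paralogues tested, 2 rose, Rpl22l1 and Rpl7l1. Rpl22l1 encodes a close relative of the large subunit protein RPL22, which is known to hold the paralogue down in some cell types. Rpl22l1 read 13.19, 13.18 and 13.21 in Mn1wt and 13.60, 13.59 and 13.54 in Mn1null, and every Mn1null array was higher than every Mn1wt array. Means were 13.19 ± 0.014 in Mn1wt and 13.58 ± 0.034 in Mn1null (SD, n = 3 each), a 1.30-fold rise (difference 0.38 ± 0.043, SE, limma adjusted p = 0.000329) that kept its call under all 13 of the alternatives that could give it a value. Rpl22 itself read 14.12, 14.11 and 14.12 in Mn1wt and 14.21, 14.18 and 14.18 in Mn1null on its brightest probe set and differed by 0.074 (-0.025 to 0.17, adjusted p = 0.191). Rpl7l1, a relative of RPL7 that acts in ribosome assembly, read 11.13, 11.17 and 11.13 in Mn1wt and 11.69, 11.60 and 11.58 in Mn1null and differed by 0.48 ± 0.049 (SE, 1.39-fold, adjusted p = 0.000214). Its 3 probe sets all rose, by 0.48, 0.21 and 0.64. Rps4l was near the filter level in both groups (4.24 ± 0.13 and 4.32 ± 0.044) and differed by 0.083 (adjusted p = 0.387). Rpl3l, a muscle form, and Rpl39l, a testis form, had means of 3.62 and 3.80, under the filter level, and were not tested.

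By conservation, of 11 large subunit genes of the eukaryotic list, 4 were higher and 0 lower (36.4% called, median 0.096). Of 9 large subunit genes with counterparts in bacteria, 0 were higher and 1 was lower (11.1%, median 0.036). By position, of 11 genes of the small subunit's body and platform, 5 were higher and 0 lower (45.5%, median 0.087). Of 9 genes of its head, 0 were higher and 1 was lower (11.1%, median 0.051). Each of these shares lay below the 48.8% called over all genes tested. Among the called genes, Rpl14, Rpl37, Rpl39, Rps6, Rpl27a and Rps25 were read at means under 13. By unadjusted p the counts higher and lower were 5 and 0, 1 and 1, 5 and 0, and 1 and 1 in this order of lists, and with the trend and robust settings 7 and 1, 3 and 1, 7 and 1, and 4 and 1. The differences between these lists were not tested. The 3 dim genes that missed the threshold, named after their values were seen, were the paralogue Rps4l, Rps27 and Rpl12. Rpl12, which forms the stalk's base together with Rplp0, read 8.75, 8.67 and 8.86 in Mn1wt and 8.73, 8.58 and 8.54 in Mn1null, with overlapping groups and a difference of -0.14 (-0.32 to 0.033, adjusted p = 0.158). Rps27, a zinc-finger protein, differed by -0.04 (-0.22 to 0.14, adjusted p = 0.703).

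Where a gene had several probe sets, differences spread more widely among the dim ones than among the bright ones. The 48 genes had 102 probe sets, of which 96 passed the filter, and 23 genes had more than 1. In a fit over all probe sets of 1 gene (46.1% of 26395 called), 64 of these probe sets had a mean of at least 13: 10 were higher, 0 were lower (13 and 0 by unadjusted p), and their differences ran from -0.073 to 0.38. Of the 32 dimmer ones, 11 were higher and 7 lower, from -0.83 to 0.87, and 7 differed by at least 1.5-fold against 0 of the bright ones. Bright probe sets of 1 gene could also fall on both sides of the threshold, as for Rpl13a (0.046 and 0.085 not passed, 0.20 passed with adjusted p = 0.0113) and Rps15 (0.051 not passed, 0.16 passed with adjusted p = 0.0385), both named after their values were seen. For Rpl22, probe sets at 14.15 and 13.16 gave 0.074 and 0.090, and 1 at 9.66 went from 9.22 to 10.10, a difference of 0.87 (limma adjusted p = 1e-05). For Rpl41, the smallest subunit protein, bright probe sets gave 0.0035 and -0.073 and dim ones at 8.11 and 7.74 gave -0.83 and -0.75.

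Probe sets of Rps9 and Rps24 passed in opposite directions. For Rps9 the probe set at 14.27 rose by 0.17 (limma adjusted p = 0.0197 in this fit) and that at 7.99 fell by 0.62 (adjusted p = 1.47e-04), so the mean of its probe sets gave -0.13. For Rps24, of 6 probe sets, 4 with means from 13.50 to 14.41 gave 0.13 to 0.17, of which 2 passed, while that at 7.45 rose by 0.74 and that at 5.34 fell by 0.34. Which transcript forms, introns or overlapping genes the dim probe sets read was not tested. The 110 probe sets annotated to several genes had a median difference of 0.063, with 79 at a signal of at least 13 (median 0.064).

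**Figure D4:**
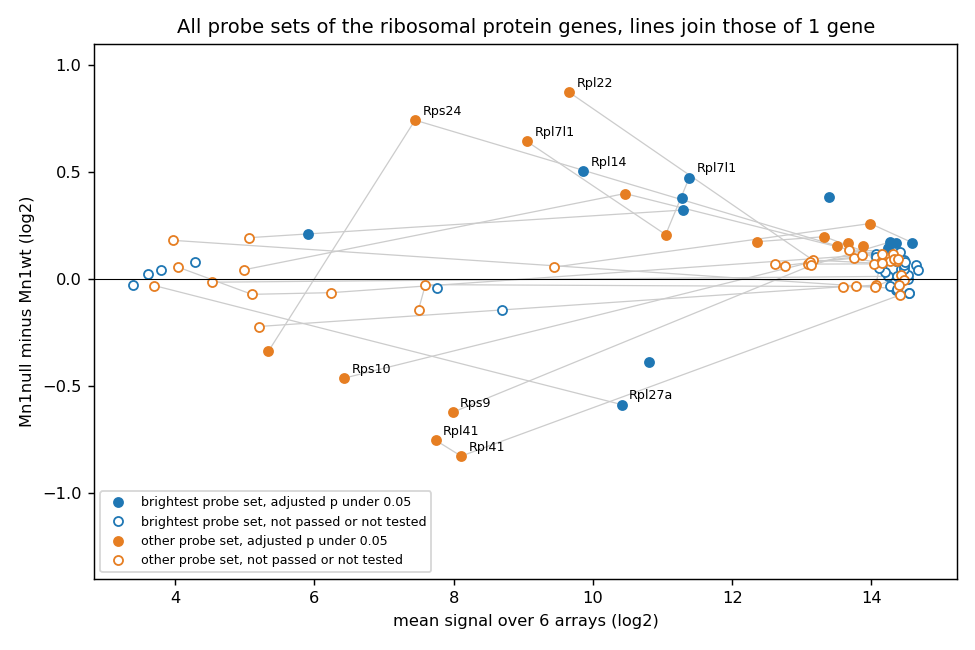
Difference (log2, Mn1null minus Mn1wt) against mean signal for all 102 probe sets of the 48 genes, with grey lines joining those of 1 gene, blue for the brightest probe set of a gene and filled points where limma's adjusted p was under 0.05. Probe sets above a signal of 13 lie between -0.073 and 0.38, and the tested ones below spread from -0.83 to 0.87.

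Most genes whose products build the ribosome were lower in Mn1null. Of 29 large subunit assembly factors tested, 22 were lower and 2 higher (82.8% called, median -0.34), and of 28 small subunit and nucleolar processing factors, 23 were lower and 1 higher (85.7%, median -0.46). Rpf2, which brings the RPL5 and RPL11 particle into the pre-ribosome, fell (difference -0.58, adjusted p = 7.36e-05), as did the nucleolar GTPase gene Gnl3 (-0.49). Utp20 and Rrp12, factors of early and late small subunit assembly, differed by -0.77 and -0.67 (adjusted p = 2.55e-05 and 4.98e-05). The exceptions were Nop53 (0.67), a large subunit factor, Nsa2 (0.15) and Nob1 (0.21), the nuclease that finishes 18S ribosomal RNA. Nsa2 and Nob1 missed the threshold after median centring (adjusted p = 0.211 and 0.0941) and without Mn1wt replicate 1, Mn1wt replicate 3 or Mn1null replicate 1 (0.0791 to 0.125). Nsa2 missed it also without Mn1null replicate 2 (0.114) and Nob1 without Mn1null replicate 3 (0.0973), while Nop53 did so on a plain probe set (0.23, adjusted p = 0.0504).

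Mitochondrial ribosomal proteins, which serve the separate ribosome of that organelle, gave 76 tested genes, of which 56 were lower and 5 higher (80.3%, median -0.33). Mrpl47 had the smallest p among those that fell, with 10.64, 10.65 and 10.60 in Mn1wt and 9.68, 9.59 and 9.69 in Mn1null and a difference of -0.98 (adjusted p = 7.03e-06). It was followed by Mrpl1 (-0.79), while Mrpl52 (0.31) and Mrpl24 (0.28) rose. Ribosome rescue and quality control factors had 8 of 11 lower and 0 higher by limma (median -0.24; 9 lower and 0 higher by unadjusted p, 8 and 0 with the trend and robust settings), among them Usp10 (-0.73), a deubiquitinase of stalled small subunits, and Abce1 (-0.45), which splits ribosomes. Under each alternative the medians of both assembly lists and of the mitochondrial list stayed below 0, between -0.51 and -0.25. The difference between these lists and the cytosolic ribosomal proteins was not tested.

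Among other TOP messages and the genes that control TOP translation, calls went in both directions, as over all genes tested (23.2% higher, 25.6% lower). Of 21 other TOP genes, 7 were higher and 6 lower (61.9% called, median 0.059). The median of this list turned to -0.028 with the mean of probe sets (5 higher, 9 lower) and to -0.12 with plain probe sets (15 tested, 5 higher, 6 lower). Eef2, the elongation factor that moves the ribosome along the message, rose by 0.44 (adjusted p = 0.000301), and Eef1d, an exchange factor subunit of elongation, fell (-0.54, adjusted p = 0.000392). Of 4 small nucleolar RNA host genes in the list, 3 were higher and 1 lower. Gas5 rose by 0.74 on its brightest probe set, though its plain probe set gave -0.69 (adjusted p = 9.18e-05), and Snhg5 fell (-0.83, adjusted p = 1.97e-05). Snhg1 (0.25, adjusted p = 0.0205) and Snhg8 (0.32, adjusted p = 0.00222), named after their values were seen, were higher. Of 13 control genes, 3 were higher and 4 lower (53.8% called, against 48.8% of all genes tested, median -0.032). Tsc2, an inhibitor of mTORC1, rose by 0.43, and Rps6kb2, an S6 kinase, by 0.21, a call lost after median centring (adjusted p = 0.0566). The mTORC1 activator Rheb (-0.38) and the translational repressor Eif4ebp2 (-0.32) fell. The other control genes called were named after their values were seen. Larp1 (-0.34, adjusted p = 0.00194) and Mtor (-0.23, adjusted p = 0.0266) were lower, and Mlst8 (0.13, adjusted p = 0.046) was higher.

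Fau encodes the small subunit protein RPS30 fused to a ubiquitin-like protein and lies outside the naming rule. It went from 14.07 ± 0.0063 to 14.23 ± 0.039 (0.16, adjusted p = 0.0214), a size like that of Rps9 and Rps14, but missed the threshold after median centring (adjusted p = 0.0897) and when any 1 array but Mn1null replicate 2 was left out (0.0516 to 0.0723). Rps27l, a p53-induced relative of Rps27 that the rule leaves out, read 13.61, 13.54 and 13.55 in Mn1wt and 13.71, 13.65 and 13.59 in Mn1null and overlapped between groups (0.084, adjusted p = 0.214).

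**Figure D5:**
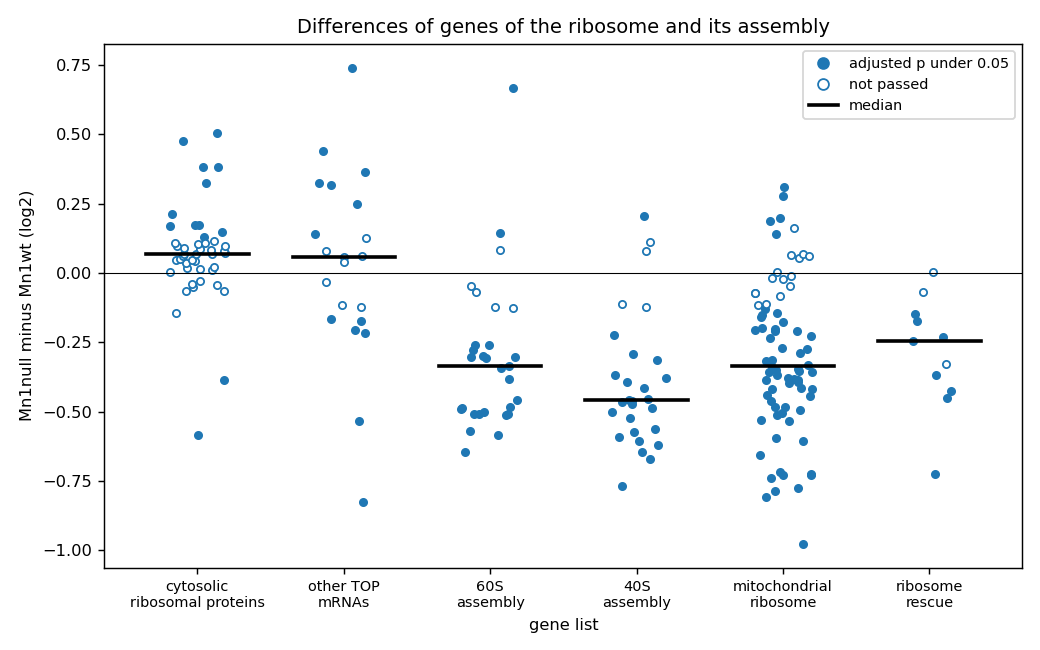
Differences (log2, Mn1null minus Mn1wt) of single genes in the cytosolic ribosomal protein list and 5 companion lists, with filled points where limma's adjusted p was under 0.05, bars for medians and horizontal jitter for legibility. The medians are 0.069 for cytosolic ribosomal proteins, 0.059 for other TOP messages (below 0 with the mean of probe sets or plain probe sets), -0.34 and -0.46 for the assembly lists, -0.33 for mitochondrial ribosomal proteins and -0.24 for rescue factors.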

How the data were processed

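The authors deposited 1 table of log2 signals for 6 Affymetrix arrays. Per the submitters' processing notes RMA was used, a method that corrects background, gives all arrays 1 distribution and summarises probes. Per the labels' protocols, 3 microgram of total RNA were labelled with biotin. The RMA version was not given in the sources used here. The table holds 45101 probe sets. After 64 controls were set aside, 34945 probe sets named 1 gene, 932 several and 9160 none in the platform annotation. Each gene took its probe set with the highest mean, and genes with a mean under the 30th percentile (4.07) were dropped, which left 14680. Mn1null was compared with Mn1wt by limma 3.58.1 (lmFit, eBayes; R 4.3.3), 2-sided, with no block, Benjamini-Hochberg adjustment over all genes and a threshold of 0.05. Unless stated otherwise, each adjusted p is of this limma model. Only the limma step was tested on simulated data, drawn with normal noise. Replicate numbers did not pair the arrays.

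Members and gene lists were chosen with earlier results of these data known. Named genes are the 10 largest rises and falls among called members whose groups do not overlap, members fixed by role, members with opposite probe sets, and up to 2 genes per direction of each companion list. Alternatives covered the probe set rule, filter, scaling, variance prior, replicate block and single arrays; a signal limit of 13 was added after seeing the data. Promoter windows come from RefSeq (GRCm38.p6).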

Additional observations from a re-analysis of the deposited data

How the results depend on the processing

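Against 13 ribosomal protein genes called, 28 were called with the trend and robust settings and 6 when counting was limited to bright probe sets, a limit added after seeing the data; every other alternative gave 9 to 17. For the large subunit the count of 5 became 8 with the mean of probe sets, 13 with trend and robust settings and 1 with bright probe sets only, and for the small subunit the count of 6 became 3 with median centring and 13 with trend and robust settings. The median difference of 0.069 was -0.0396 with plain probe sets only, where 23 genes could be tested, 0.0368 with quantile normalization and 0.0234 with median centring, and between 0.0645 and 0.0778 with single arrays left out. The median of the other TOP genes turned to -0.028 with the mean of probe sets and -0.1213 with plain probe sets. Signs turned for Rps9 with the mean of probe sets (-0.1272) and its plain probe set (-0.6215), for Rplp0 with quantile normalization (-0.0048) and median centring (-0.0245), for Rpsa with the mean of probe sets (0.0692) and for Gas5 with its plain probe set (-0.6923). Of 44 named genes tested, 24 kept their direction and side of the threshold under all alternatives that gave them a value. Replicate numbers of the titles did not pair the arrays: deviations of arrays with the same number correlated at -0.039, 0.11 and 0.080, and the replicate block called 11 ribosomal protein genes and 6943 genes in all, losing Rps7 (adjusted p = 0.0527), Rps24 (0.0779), Fau (0.0502), Nsa2 (0.061) and Nob1 (0.0755) among the named genes. The cause of these changes was not tested. With 3 arrays a group, precision is limited, and signals near the top and the floor of the scale limit what a difference can show.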
